A study of Homo sapiens with 6 samples.

Results

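The genes described here are the subunits of the vacuolar proton pump (V-ATPase) and the proteins that dock the kinase complex mTORC1 on the lysosome, measured as RNA in U87 cells with and without knockdown of the arginine methyltransferase PRMT6. Members were taken by gene symbol: every gene whose symbol begins ATP6V0, ATP6V1 or ATP6AP and carries a subunit letter or the number 1 or 2, which gave 24 genes, and 20 named genes of the mTORC1 platform. These 44 genes are part of a table of 60612 genes. The family as a whole was selected on RNA fold changes of V-ATPase subunits in the same comparison, shPRMT6 against NC, which had been seen before, so the differences below describe these libraries and are not independent evidence that the family changes.

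The V-ATPase pumps protons into lysosomes and other compartments. Its peripheral V1 sector splits ATP and turns a rotor, and its membrane-embedded V0 sector passes the protons. On the lysosome it is bound to the Ragulator scaffold, which holds the Rag GTPases, and the Rag GTPases recruit mTORC1 when amino acids are plentiful. The MiT/TFE transcription factors TFEB, TFE3 and MITF are held in the cytosol by active mTORC1 and drive lysosomal genes, V-ATPase genes among them, when they enter the nucleus.

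U87 is an established human glioblastoma line. The 3 NC libraries came from U87 cells that received lentivirus with a scramble shRNA and the 3 shPRMT6 libraries from U87 cells that received lentivirus with an shRNA against PRMT6. All 6 are total RNA of infected cells grown in serum, with no uninfected cells among these libraries, and which of the PRMT6 shRNA sequences was sequenced is not given in the sources used here. The methods text calls the 3 libraries of a group independent replicates.

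Total counts per library lay between 56388161 and 75887696 in NC and between 61805330 and 67630740 in shPRMT6. PRMT6 RNA was 9.33, 7.97 and 7.19 CPM (counts scaled to library size) in NC replicates 1, 2 and 3 and 3.57, 4.58 and 5.24 CPM in shPRMT6, so the groups did not overlap (log2 fold change -0.87, SE 0.187). The PRMT6 call was lost without NC replicate 1, shPRMT6 replicate 1 or shPRMT6 replicate 2. Of 10 glioblastoma markers, VIM, CD44, TNC and NES were abundant, OLIG2 had means of 2.55 CPM in NC and 2.83 CPM in shPRMT6, and GFAP, SOX2, PTPRZ1, FABP7 and S100B stayed under 1 CPM in every library, with S100B at 0. TNC fell (log2 fold change -0.35, SE 0.05), the only marker of the list that was called. The summed level of the 10 was 10705 to 11760 CPM in NC and 9863 to 10621 CPM in shPRMT6. Summed markers of melanocytes stayed under 1 CPM, those of neurons ran from 25.8 to 29.1 CPM in NC and 22.9 to 27.3 CPM in shPRMT6, and those of epithelium from 13.3 to 19.7 CPM in NC and 3.60 to 9.69 CPM in shPRMT6. Of the 4 epithelial genes, KRT8 and CDH1 were called lower (log2 fold changes -1.23 and -2.18), with CDH1 under 1 CPM in every library. With 1 library left out, both calls held only without shPRMT6 replicate 1.

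Of the 44 genes, 42 passed edgeR's filter on low counts and were tested. A gene is called here when its adjusted p was under 0.05 in edgeR's quasi-likelihood fit over all 18106 genes tested, with Benjamini-Hochberg adjustment. Log2 fold changes are shPRMT6 over NC, with a standard error (SE). The SE was derived from the test, as the absolute log2 fold change over the square root of its F statistic. Among all genes tested 18.6% were called, 9.51% as higher and 9.06% as lower, and the median log2 fold change was -0.01. A second program, DESeq2, called more of the 18106 genes, 2940 higher and 2842 lower, and its counts below stand against these. The share of all genes at an unadjusted p under 0.05 alone was not counted, so counts at that threshold have no background here. Of the 42 members 14 were called (33.3%), 12 higher and 2 lower, with a median log2 fold change of 0.17. Among the 42 tested members, the 3 shPRMT6 libraries all lay above the 3 NC libraries for 19 and all below them for 5. Over all genes tested, 20.3% were separated in the first way and 19.9% in the second. An absolute log2 fold change above 1 with an unadjusted p under 0.05, the threshold given in the methods, was passed by 2 members, ATP6V0D2 and RRAGC, and by 5.92% of all genes tested. In RNA of whole cultures, fewer cells of a kind and less RNA per cell cannot be told apart.

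The V1 sector held 6 of the 14 calls. Of its 13 genes 11 were tested, 6 rose and none fell. The share called was 54.5%, against 18.6% of all genes tested. At an unadjusted p under 0.05 the edgeR counts were 7 higher and 0 lower, and DESeq2 gave the same numbers of calls. The median log2 fold change of the 11 was 0.62. Summed over the sector, RNA was 674 to 802 CPM in the NC libraries and 1111 to 1172 CPM in the shPRMT6 libraries.

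ATP6V1A encodes the catalytic A subunit, where ATP is split. It stood at 56.3, 72.3 and 59.9 CPM in NC and at 106, 113 and 116 CPM in shPRMT6. ATP6V1A rose, with a log2 fold change of 0.83 (SE 0.10), and every shPRMT6 library lay above every NC library. Its partner in the catalytic ring is the nucleotide-binding B subunit, made in U87 cells almost wholly from ATP6V1B2. ATP6V1B2 stood at 80.8, 80.9 and 83.3 CPM in NC and at 161, 160 and 162 CPM in shPRMT6. It rose by 1.97-fold (log2 fold change 0.98, SE 0.05), with hardly any spread inside either group. The A and B genes kept about the same ratio per length: ATP6V1B2 over ATP6V1A, in FPKM (fragments scaled to exon length and to library size), was 0.863 ± 0.113 in NC and 0.949 ± 0.0403 in shPRMT6 (SD, n = 3), with overlapping values.

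ATP6V1H, a regulatory subunit at the base of the V1 sector, stood at 40.4, 35.6 and 43.0 CPM in NC and at 70.1, 70.8 and 69.2 CPM in shPRMT6. It rose with a log2 fold change of 0.82 (SE 0.08), close to that of ATP6V1A. The rotor stalk is built from the D and F subunits, and both genes rose. ATP6V1D stood at 113, 85.8 and 97.2 CPM in NC and at 153, 155 and 163 CPM in shPRMT6 (log2 fold change 0.67, SE 0.10). ATP6V1F stood at 236, 170 and 210 CPM in NC and at 331, 318 and 299 CPM in shPRMT6 (log2 fold change 0.62, SE 0.12). The groups did not overlap for either gene, but the call of ATP6V1F was lost without NC replicate 3, shPRMT6 replicate 1 or shPRMT6 replicate 2. Of the exons of ATP6V1F, 23.7% overlap KCP on the opposite strand, which stood at 1.60 to 4.07 CPM. EIF2S1, at 200 to 218 CPM, overlaps 6.33% of the exons of ATP6V1D on the opposite strand and was not called.

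The peripheral stalks, which keep the catalytic ring from turning, are made of E and G subunits. ATP6V1G1 stood at 90.8, 80.4 and 84.4 CPM in NC and at 141, 135 and 127 CPM in shPRMT6, and rose with a log2 fold change of 0.66 (SE 0.07). ATP6V1E1 stood at 83.8, 88.1 and 86.6 CPM in NC and at 135, 103 and 99.1 CPM in shPRMT6. Its groups did not overlap either, but shPRMT6 replicate 1 stood well above the others of its group and the gene was not called (log2 fold change 0.38, SE 0.12).

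ATP6V1C1, which encodes the C subunit that links the stalks to the V0 sector, was the abundant V1 gene that did not share this pattern. It stood at 93.4, 54.0 and 98.2 CPM in NC and at 67.2, 66.2 and 68.5 CPM in shPRMT6. NC replicate 2 lay below the shPRMT6 libraries and the other NC libraries above them, and the gene was not called (log2 fold change -0.28, SE 0.21). Without NC replicate 2 it was called lower, with a log2 fold change of -0.51.

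The remaining V1 genes are the rarer copies of a subunit. ATP6V1E2 and ATP6V1G2 lay between 1.67 and 3.93 CPM in all libraries and were not called (log2 fold changes -0.12, SE 0.15, and -0.04, SE 0.26). ATP6V1C2 reached at most 1.62 CPM, and 29.9% of its exons overlap genes on the opposite strand, chiefly PDIA6. PDIA6 stood at a mean of 514 CPM in NC and 177 CPM in shPRMT6 and was called lower. ATP6V1B1, the B subunit copy known from kidney and inner ear, reached at most 0.481 CPM and was not tested. ATP6V1G3 had 0 counts in all 6 libraries, which allows up to 0.0532 CPM in the shallowest library if 3 counts are taken as the limit.

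**Figure D1:**
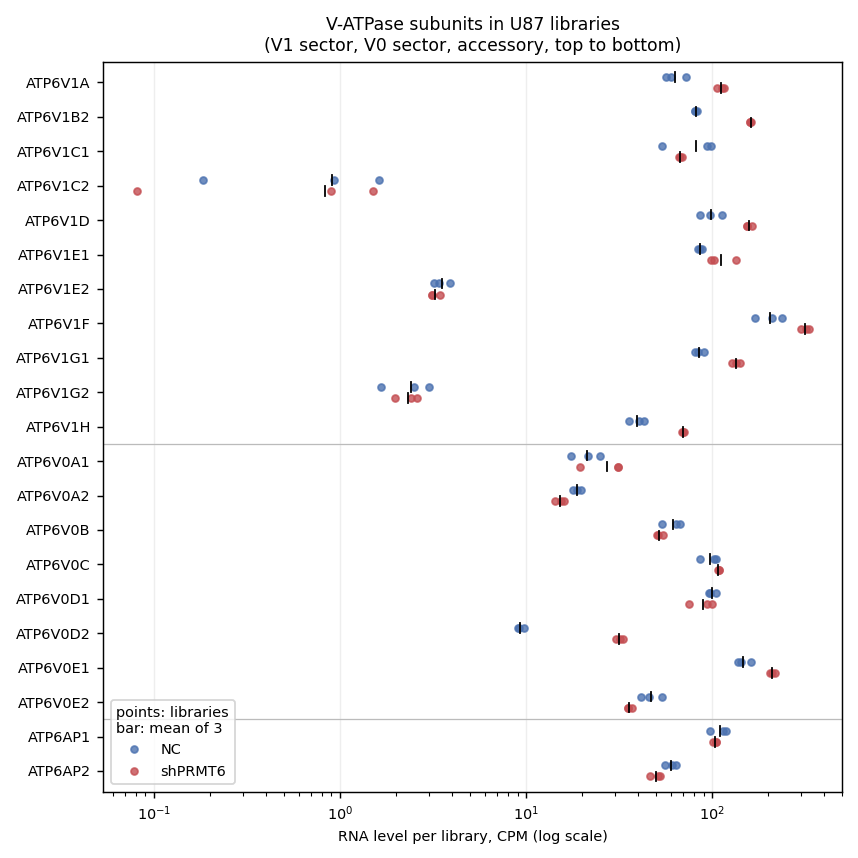
Level of V-ATPase subunit RNA in each library, in CPM on a log axis, with NC in blue, shPRMT6 in red and a bar at the mean of 3 libraries. ATP6V1A, ATP6V1B2, ATP6V1D, ATP6V1F, ATP6V1G1, ATP6V1H, ATP6V0D2 and ATP6V0E1 lie wholly to the right in shPRMT6 and were called, while ATP6V0E2 lies to the left; ATP6V1B1, ATP6V1G3 and ATP6V0A4, with 0 counts in at least 1 library, are not drawn.

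The V0 sector was divided. All 9 of its genes taken by symbol were tested, 2 rose and 1 fell, and the median log2 fold change was 0.14. The share called was 33.3%, against 18.6% of all genes tested. At an unadjusted p under 0.05 the edgeR counts were 2 higher and 3 lower, and DESeq2 called the same numbers, with ATP6V0A2 and ATP6V0B as the further lower genes. The summed RNA of these 9 was 470 to 535 CPM in NC and 565 to 576 CPM in shPRMT6. TCIRG1, a further V0 gene described below, is in neither these counts nor the sum. It fell, from 90.4 to 111 CPM in NC to 77.0 to 79.6 CPM in shPRMT6. The higher sum in shPRMT6 thus describes the 9 genes and not the whole sector.

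The gene with the largest change among the called members was ATP6V0D2. It encodes one of a pair of d subunits, which couple the rotor to the proteolipid ring, and is best known from osteoclasts, macrophages and kidney. ATP6V0D2 stood at 9.05, 9.13 and 9.76 CPM in NC and at 31.8, 30.3 and 33.1 CPM in shPRMT6, a 3.41-fold rise (log2 fold change 1.77, SE 0.09). The widely expressed copy, ATP6V0D1, stood at 105, 97.7 and 96.2 CPM in NC and at 99.5, 75.4 and 94.2 CPM in shPRMT6, with overlapping groups, and was not called (log2 fold change -0.15, SE 0.11). Per exon length, ATP6V0D2 made up 19.3%, 20.6% and 21.9% of the summed d subunit FPKM in NC and 47.0%, 52.7% and 49.3% in shPRMT6. By counts, without regard to length, the share was smaller, 8.57% in NC and 26.3% in shPRMT6 on average. The share was thus higher in every shPRMT6 library on both scales, but its size depended on whether length was counted. The length used followed all annotated exons of a gene merged, 8212 bases for ATP6V0D1 and 3010 for ATP6V0D2. A gene whose transcripts are shorter than that is understated in FPKM. Which transcripts these cells made was not tested, so the size of the FPKM share rests on these lengths.

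Markers of the cell types known for ATP6V0D2 were read in the same libraries. Of 10 macrophage and osteoclast genes, PTPRC, AIF1, CD14 and ITGAM, which mark blood-derived cells, and DCSTAMP, which osteoclasts need to fuse, stayed at or near 0, under 1 CPM in all 6 libraries. The other 5 were expressed in every library: CSF1R, the receptor of a macrophage growth factor, at 10.8 to 14.3 CPM, the osteoclast receptor OSCAR at 7.77 to 11 CPM, the phosphatase ACP5 at 3.06 to 4.45 CPM, and CD68 and CTSK at higher levels. The summed level of the list, carried by CD68 and CTSK, was 359 to 460 CPM in NC and 366 to 534 CPM in shPRMT6. None of its 5 tested genes was called by edgeR, with 1 higher at an unadjusted p under 0.05 and 1 higher by DESeq2. Of 5 kidney intercalated cell genes, FOXI1 and SLC4A1 had 0 counts and SLC4A9 and AQP6 stayed under 1 CPM, while SLC26A4, an anion exchanger, rose from a mean of 1.26 CPM to 4.46 CPM (log2 fold change 1.82). That list summed to 1.18 to 1.56 CPM in NC and 4.29 to 4.84 CPM in shPRMT6, and its part in the ATP6V0D2 result was not tested. Of the exons of ATP6V0D2, 16.7% overlap AC023194.3 on the opposite strand, which had 0 counts in all libraries.

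The e subunits are small membrane proteins of the V0 sector, and their 2 genes were called in opposite directions. ATP6V0E1 stood at 161, 137 and 144 CPM in NC and at 209, 217 and 204 CPM in shPRMT6, and rose (log2 fold change 0.51, SE 0.07). ATP6V0E2 stood at 53.5, 41.4 and 45.7 CPM in NC and at 37.1, 35.3 and 35.1 CPM in shPRMT6, and fell (log2 fold change -0.39, SE 0.11). Neither pair of groups overlapped, and the share of ATP6V0E2 in the summed e subunit FPKM went from 7.02% ± 0.303 to 3.91% ± 0.163 (SD, n = 3). The call of ATP6V0E2 was a bare one: it held only without NC replicate 2 among the 6 fits that left out a library, and in 5 of 9 other fits. Its antisense gene ATP6V0E2-AS1, which overlaps it, stood at a mean of 1.81 CPM in NC and 0.815 CPM in shPRMT6 and was called lower too, and the library kit named in the labels does not mark the strand of a read.

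The a subunits carry the proton path and decide to which membrane the pump goes. ATP6V0A1 stood at 17.4, 24.9 and 21.4 CPM in NC and at 19.6, 31.1 and 31.4 CPM in shPRMT6, with overlapping groups (log2 fold change 0.36, SE 0.22). ATP6V0A2 stood at 18.7, 19.6 and 17.8 CPM in NC and at 15.5, 16 and 14.4 CPM in shPRMT6, lower in all 3 but not called (log2 fold change -0.29, SE 0.09). ATP6V0A4 stayed at or under 0.374 CPM. The most abundant a subunit gene, TCIRG1, has a symbol that the selection does not reach. It stood at 111, 90.4 and 111 CPM in NC and at 79.6, 77.1 and 77.0 CPM in shPRMT6 and fell (log2 fold change -0.42, SE 0.09, adjusted p = 0.0244 from edgeR), a call that held without NC replicate 2 and was lost without any other library. TCIRG1 made up 88.6% ± 2.44 of the summed a subunit FPKM in NC and 83.8% ± 2.73 in shPRMT6 (SD, n = 3), with overlapping shares.

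The proteolipid ring turns inside the membrane and carries the protons. ATP6V0C, its c subunit, stood at 103, 86.2 and 105 CPM in NC and at 109, 108 and 107 CPM in shPRMT6 and was not called (log2 fold change 0.14, SE 0.09). The counts of ATP6V0C are uncertain, since 62.4% of its 75-base stretches are shared with other annotated genes, of which AC093525.1 and AC093525.2 were listed at 0 counts. ATP6V0B, the related c'' subunit, stood at 67.5, 54.1 and 63.7 CPM in NC and at 54.7, 50.9 and 50.6 CPM in shPRMT6, with overlapping groups (log2 fold change -0.25, SE 0.10). It was called lower without NC replicate 2, at -0.33.

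Neither accessory subunit was called. ATP6AP1 and ATP6AP2 assist the assembly of the pump, and ATP6AP2 is also known as the prorenin receptor. Their log2 fold changes were -0.09 (SE 0.08) and -0.27 (SE 0.08), and ATP6AP2 was the only one past an unadjusted p of 0.05 in edgeR and the only one called by DESeq2. Together they summed to 159 to 183 CPM in NC and 151 to 158 CPM in shPRMT6.

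One pair of V1 and V0 genes was compared as a ratio, ATP6V1A with the widely expressed d subunit gene. ATP6V1A over ATP6V0D1, in FPKM, was 0.856, 1.18 and 0.993 in NC and 1.70, 2.38 and 1.96 in shPRMT6, so the groups did not overlap. Against ATP6V0D2 the order was the other way, since ATP6V0D2 rose more than ATP6V1A. Of the members, 4 lie on chromosome 8, where ATP6V1B2, ATP6V1H and ATP6V0D2 rose and ATP6V1C1 was not called. The median log2 fold change of the 654 genes tested on that chromosome was -0.01.

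**Figure D2:**
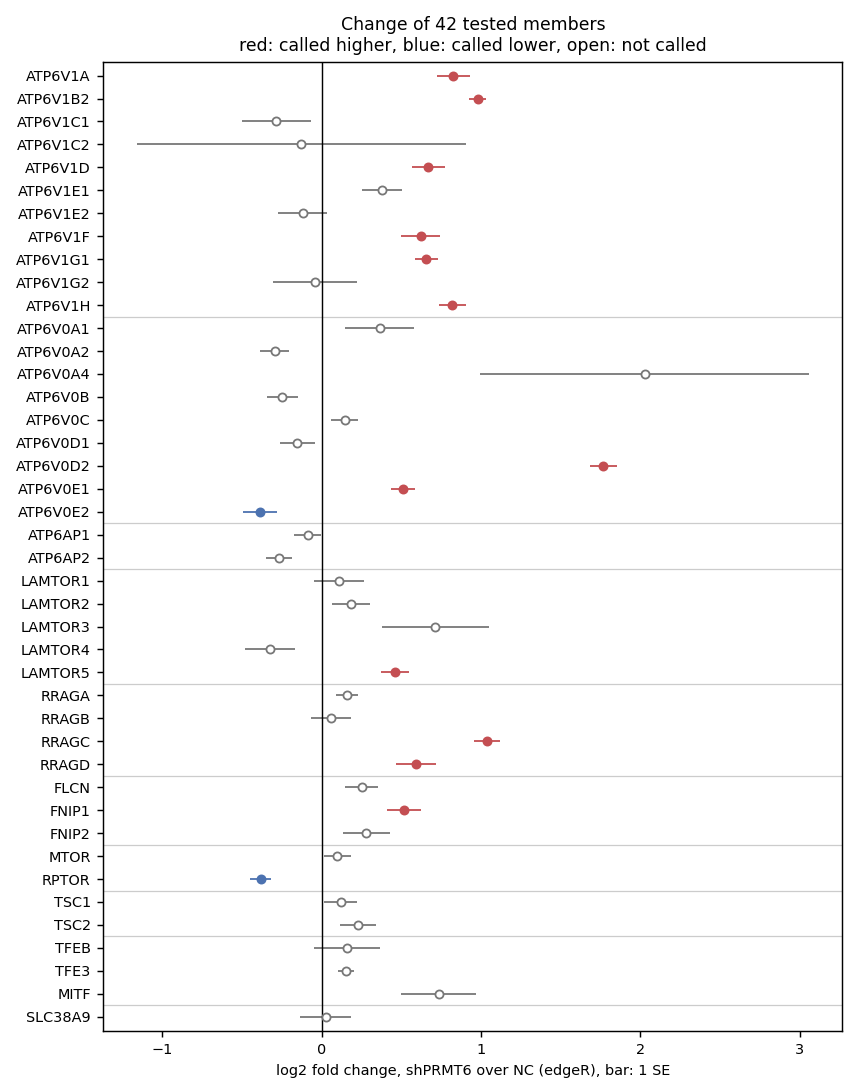
Log2 fold change of each of the 42 tested members, shPRMT6 over NC, from edgeR, with bars of 1 SE and rules between the role groups. Red marks the 12 called higher, blue the 2 called lower and open circles those not called, and the points of the V1 sector that are called lie between 0.62 and 0.98.

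In the mTORC1 platform all 20 genes were tested, 4 rose and 1 fell, and the median log2 fold change was 0.17. The share called, 25%, was not far above the 18.6% of all genes tested. Only RRAGC and RPTOR kept the call whichever library was left out. The genes that rose were 1 of 5 in the Ragulator, 2 of 4 Rag GTPases and 1 of 3 in the folliculin complex. The gene that fell is RPTOR, the mTORC1 subunit that the Rag GTPases bind.

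The Rag GTPases work as pairs of RagA or RagB with RagC or RagD. RRAGC stood at 56.5, 52.1 and 55.3 CPM in NC and at 124, 107 and 106 CPM in shPRMT6, a 2.05-fold rise (log2 fold change 1.04, SE 0.08). RRAGD stood at 12.6, 11.9 and 10.7 CPM in NC and at 15.2, 18.9 and 19.0 CPM in shPRMT6, and also rose (log2 fold change 0.59, SE 0.13). Both genes of the C/D side were thus higher in every shPRMT6 library, but the RRAGD call was lost without NC replicate 2, NC replicate 3, shPRMT6 replicate 2 or shPRMT6 replicate 3.

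On the A/B side, RRAGA stood at 230, 200 and 217 CPM in NC and at 250, 244 and 231 CPM in shPRMT6, just apart, and was not called (log2 fold change 0.16, SE 0.07). RRAGB lay between 9.12 and 11.5 CPM in all libraries (log2 fold change 0.06, SE 0.13). The FPKM ratio of RRAGC over RRAGA went from 0.0792 ± 0.00215 to 0.145 ± 0.00908 (SD, n = 3). RagA RNA was still several times more abundant per length than RagC RNA in both groups. Of the 75-base stretches of RRAGC, 21.8% are shared with AL139260.2, an overlapping gene of the same strand that was listed at 0 counts.

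The Ragulator is a scaffold of 5 proteins, and LAMTOR1 anchors it in the lysosomal membrane. LAMTOR5 stood at 81.7, 73.9 and 72.2 CPM in NC and at 115, 100 and 98.9 CPM in shPRMT6 and rose (log2 fold change 0.46, SE 0.09), a call lost without NC replicate 3. Of its exons 17.5% overlap LAMTOR5-AS1 on the opposite strand, which stayed at or under 0.626 CPM. The other 4 were not called. LAMTOR3 scattered most, with 36.2, 38.0 and 20.2 CPM in NC and 61.5, 31.1 and 62.1 CPM in shPRMT6 (log2 fold change 0.71, SE 0.34). LAMTOR1 and LAMTOR2 had log2 fold changes of 0.11 (SE 0.15) and 0.18 (SE 0.12), and LAMTOR4 one of -0.32 (SE 0.16), so the 5 scaffold genes did not share 1 direction.

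Folliculin, with a FNIP partner, switches the nucleotide state of RagC and RagD. FNIP1 stood at 26.6, 33.7 and 33.1 CPM in NC and at 43.4, 45 and 45.3 CPM in shPRMT6 and rose (log2 fold change 0.52, SE 0.11), a call lost when any 1 of the shPRMT6 libraries was left out. FNIP2 and FLCN were not called, with log2 fold changes of 0.28 (SE 0.15) and 0.25 (SE 0.10). FLCN lay at 33.0 to 41.3 CPM in NC and 42.2 to 46.2 CPM in shPRMT6.

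RPTOR encodes raptor, which brings substrates to mTORC1. It stood at 80.0, 82.1 and 83.8 CPM in NC and at 59.3, 63.8 and 65.6 CPM in shPRMT6 and fell (log2 fold change -0.38, SE 0.06). MTOR, the kinase, stood at 93.2, 111 and 94.6 CPM in NC and at 109, 105 and 107 CPM in shPRMT6 and was not called (log2 fold change 0.10, SE 0.08). The FPKM ratio of RPTOR over MTOR was 1.01, 0.870 and 1.05 in NC and 0.645, 0.718 and 0.720 in shPRMT6, lower in every shPRMT6 library.

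TSC1 and TSC2, which restrain mTORC1 through the GTPase RHEB, and SLC38A9, the arginine sensor of the lysosomal membrane, were not called. Their log2 fold changes were 0.12 (SE 0.10), 0.23 (SE 0.11) and 0.03 (SE 0.16), none of the 3 passed an unadjusted p of 0.05 in edgeR and none was called by DESeq2.

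Of the MiT/TFE factors, none was called by edgeR, while 2 passed an unadjusted p of 0.05 and 2 were called higher by DESeq2, TFE3 and MITF. TFE3 stood at 188, 179 and 186 CPM in NC and at 203, 202 and 209 CPM in shPRMT6 (log2 fold change 0.15, SE 0.05). MITF was rare, at 1.23 to 1.78 CPM in NC and 2.04 to 2.89 CPM in shPRMT6 (log2 fold change 0.73, SE 0.23). TFEB lay between 2.20 and 3.44 CPM in all libraries, with overlapping groups. Per length, TFE3 made up 98.5% ± 0.0380 of the summed FPKM of the 3 factors in NC and 98.3% ± 0.195 in shPRMT6 (SD, n = 3). Nearly all RNA of these 3 factors was thus TFE3.

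**Figure D3:**
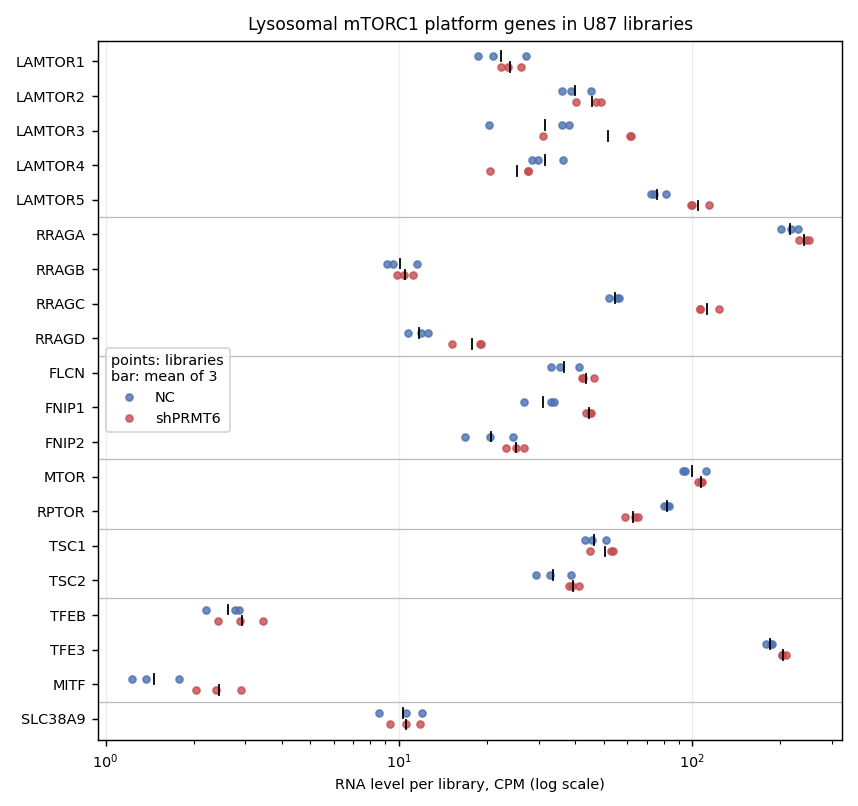
Level of the 20 mTORC1 platform genes in each library, in CPM on a log axis, with NC in blue, shPRMT6 in red, a bar at the mean of 3 libraries and rules between the role groups. RRAGC shows the widest gap, from at most 56.5 CPM in NC to at least 106 CPM in shPRMT6, and RPTOR lies to the left in shPRMT6.

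Levels were also set in order per length, as mean FPKM of the 3 NC libraries. Length here followed all annotated exons of a gene merged, so the order depends on the annotation too. ATP6V1F led with 227 ± 35.6, followed by RRAGA with 114 ± 7.32, ATP6V0E1 with 77.1 ± 6.02, ATP6V0C with 58.2 ± 6.15, ATP6V1G1 with 40.1 ± 2.22 and TFE3 with 36.8 ± 0.968 (SD, n = 3). No neighbours among these 6 overlapped. Further down the order was mostly unresolved, since 27 of the 43 pairs of neighbours overlapped, LAMTOR5 (26.7 ± 1.53) and LAMTOR2 (23.9 ± 2.68) among them. ATP6V1A, ATP6V0D1 and RRAGC lay close together in NC, at 10.3, 10.3 and 8.98 FPKM, and apart in shPRMT6, at 18.4, 9.30 and 18.5 FPKM.

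Where several genes encode 1 subunit, the balance between copies is a measure of its own. For the B, C, E and G subunits of V1 and for RagA over RagB, 1 gene held at least 96.4% of the FPKM in every library. RRAGC held 82.2% ± 1.28 of the C/D side in NC and 86.2% ± 2.43 in shPRMT6, and FNIP1 held 67.8% ± 1.92 of the FNIP pair in NC and 71.1% ± 1.53 in shPRMT6 (SD, n = 3). The largest shift of a share was that of ATP6V0D2. All these shares rest on the merged exon lengths. By counts, ATP6V0E2 made up 24.1% of its pair in NC and 14.6% in shPRMT6 on average. TCIRG1 made up 72.1% and 64.6% of the a subunit genes by counts, while RRAGC, at 82.3% and 86.3%, hardly differed from its FPKM share.

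**Figure D4:**
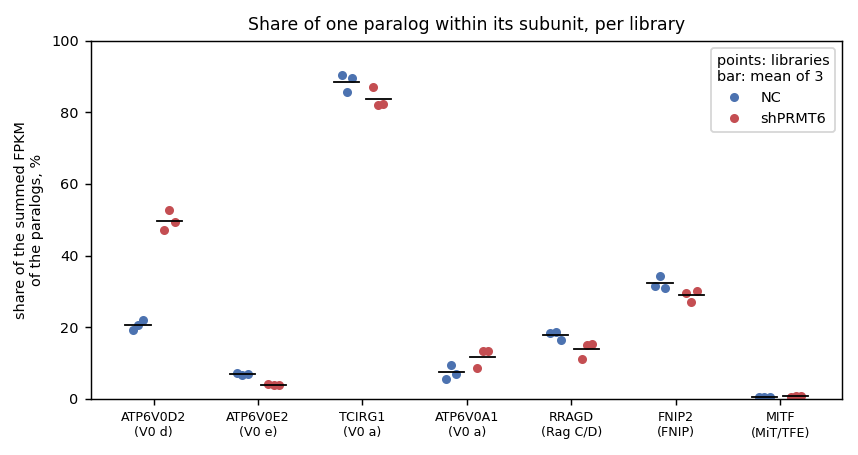
Share of 1 gene in the summed FPKM of the genes for the same subunit, in percent, for each library, with NC in blue, shPRMT6 in red and a bar at the mean of 3. ATP6V0D2 moves from 19.3% to 21.9% in NC up to 47.0% to 52.7% in shPRMT6, while the other FPKM shares drawn move by a few percentage points.

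Genes that work beside the pump and the platform were read from 4 further lists. The first list mixed V-ATPase assembly factors and regulators with the V0 subunit gene TCIRG1 and with CLCN3, CLCN5, CLCN7 and OSTM1. Among its 19 tested genes 4 rose and 1 fell, with a median log2 fold change of 0.11. The share called was 26.3%, against 18.6% of all genes tested, and does not describe assembly alone. OSTM1, the partner of the lysosomal chloride-proton exchanger CLCN7, had the smallest p (log2 fold change 0.65, adjusted p = 0.00187 in edgeR). CLCN7 itself followed (0.59, adjusted p = 0.02 in edgeR), then DMXL2, a protein of the V-ATPase assembly factor rabconnectin-3 (0.38, adjusted p = 0.0217 in edgeR). TMEM199, an assembly factor, was the last to rise, and the subunit gene TCIRG1 was the one that fell. Only OSTM1 kept its call in all 6 fits that left out a library.

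The amino acid sensing genes leaned the other way. Of 26 tested, 2 rose and 7 fell, and the median log2 fold change was -0.18. The share called was 34.6%, against 18.6% of all genes tested. SLC7A5, which with SLC3A2 forms the LAT1 importer of leucine, stood at 222, 208 and 231 CPM in NC and at 72.7, 71.3 and 79.3 CPM in shPRMT6 (log2 fold change -1.56, adjusted p = 0.000211 in edgeR). SH3BP4, reported to bind the Rag GTPases, had a log2 fold change of -0.51 (adjusted p = 0.00228 in edgeR) and the leucine sensor SESN2 one of -0.54 (adjusted p = 0.00413 in edgeR). SESN1, SLC3A2, SEH1L and NPRL3 also fell. The genes that rose were SEC13, a GATOR2 subunit (0.41, adjusted p = 0.00957 in edgeR), and SLC36A1, a lysosomal amino acid transporter (0.62, adjusted p = 0.0361 in edgeR). SLC7A5, SH3BP4, SESN2 and SEC13 kept their calls whichever library was left out, and the other 5 did not.

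Of 14 tested partners of mTOR and TSC, 1 rose and 2 fell, with a median of 0.04. The share called, 21.4%, was near the 18.6% of all genes tested. TBC1D7, a subunit of the TSC complex, rose (log2 fold change 0.86, adjusted p = 0.00532 in edgeR). DDIT4, a stress-induced inhibitor of mTORC1, fell (-0.48, adjusted p = 0.00208 in edgeR), and so did RHEB, the GTPase that activates mTORC1 (-0.40, adjusted p = 0.0136 in edgeR), whose call was lost without shPRMT6 replicate 2 or 3. RHEB stood at 267, 230 and 237 CPM in NC and at 195, 181 and 179 CPM in shPRMT6.

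Of 28 lysosomal and autophagy genes known to respond to MiT/TFE factors, 8 rose and none fell, with a median of 0.24. The share called was 28.6%, against 18.6% of all genes tested. At an unadjusted p under 0.05 the edgeR counts were 13 higher and 1 lower. DESeq2 called 12 higher and 1 lower, where over all 18106 genes it called 2940 higher and 2842 lower. The smallest p values belonged to GPNMB, a lysosomal glycoprotein (log2 fold change 1.83, adjusted p = 0.00254 in edgeR), VPS18, a subunit of the vesicle tethering complexes (0.66, adjusted p = 0.00321 in edgeR), and SGSH, a heparan sulfate-degrading enzyme (0.75, adjusted p = 0.00472 in edgeR). PSAP, HEXA and CTSA, which are enzymes of the lysosome or their helpers, also rose, with log2 fold changes from 0.27 to 0.29. GPNMB, VPS18 and SGSH kept their calls whichever library was left out, and PSAP, HEXA and CTSA did not. GPNMB was rare, at 1.11 to 1.47 CPM in NC and 3.82 to 5.34 CPM in shPRMT6.

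**Figure D5:**
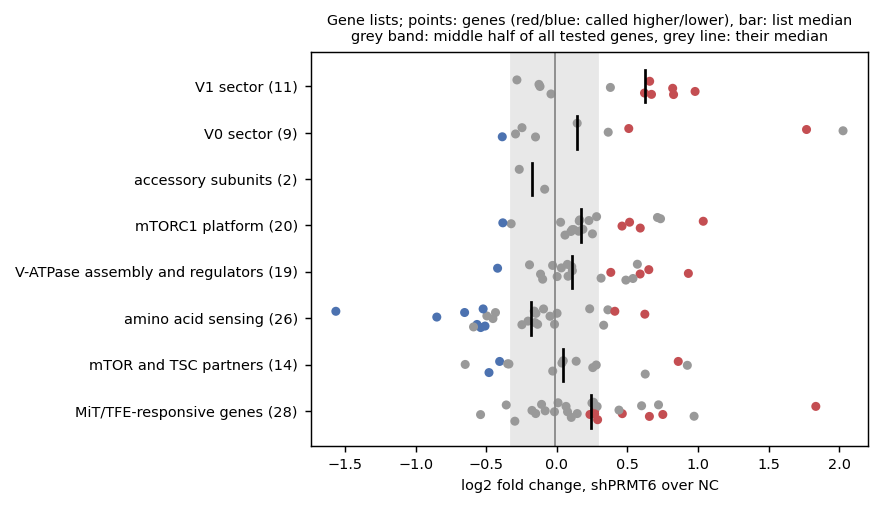
Log2 fold changes of the tested genes of each list, shPRMT6 over NC, with genes called higher in red, genes called lower in blue and the others in grey, the list median as a black bar and the interquartile range and median of all 18106 genes as a grey band and line. The V1 median lies at 0.62 and the amino acid sensing median at -0.18, against -0.01 for all genes.

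MiT/TFE factors are known to bind the E-box CACGTG, and in lysosomal genes often within the longer TCACGTGA. Both were searched in RefSeq promoter windows of GRCh38.p14, from 250 bases before to 50 bases after the start of transcription. Both motifs read the same on either strand, and each TCACGTGA also counts as a CACGTG. Of the 44 members, 35 matched a window. The unmatched ones were ATP6V0D2, ATP6V0E1, ATP6V1A, ATP6V1B2, ATP6V1C1, ATP6V1E2, ATP6V1H, RRAGA and RRAGD. CACGTG was present in 10 of the 35 (28.6%), against 8.77% of the 27305 genes with windows, and TCACGTGA in 4 of the 35 (11.4%), against 1.18%. The first was found in 3 of 6 members called higher (ATP6V1G1, FNIP1 and RRAGC), in 1 of 2 called lower (ATP6V0E2) and in 6 of 25 not called. The other 6 members called higher are among those without a window. The 4 with the longer form were ATP6V1G1, ATP6V0D1, RRAGB and TSC2. A match describes letters in the window and not a bound site.

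Sequences around the matches are shown for the 3 members that rose, for the one that fell and for ATP6V0D1, which holds the longer form and was not called. Each is written 5′ to 3′ on the strand of the gene, upstream of the RefSeq start of transcription, with the CACGTG in capitals. RRAGC (chr1:38859834-38859929, minus strand), FNIP1 (chr5:131797061-131797237, minus strand), ATP6V1G1 (chr9:114587666-114587761, plus strand), ATP6V0E2 (chr7:149872851-149872946, plus strand) and ATP6V0D1 (chr16:67481166-67481261, minus strand) carry it as follows.
RRAGC: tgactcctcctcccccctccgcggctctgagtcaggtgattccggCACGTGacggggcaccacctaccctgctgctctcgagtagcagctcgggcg
FNIP1: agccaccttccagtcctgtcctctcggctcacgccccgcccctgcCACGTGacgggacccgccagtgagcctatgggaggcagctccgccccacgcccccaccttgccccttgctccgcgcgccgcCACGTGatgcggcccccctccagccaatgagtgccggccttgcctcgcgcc
ATP6V1G1: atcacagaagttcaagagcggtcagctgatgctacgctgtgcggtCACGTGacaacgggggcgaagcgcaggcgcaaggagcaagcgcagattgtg
ATP6V0E2: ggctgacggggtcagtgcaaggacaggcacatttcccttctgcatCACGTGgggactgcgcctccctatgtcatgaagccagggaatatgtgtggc
ATP6V0D1: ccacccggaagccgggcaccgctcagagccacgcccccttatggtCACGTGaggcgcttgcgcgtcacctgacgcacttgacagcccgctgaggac

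FNIP1 holds 2 matches, which begin 175 and 94 bases before its start of transcription. The match of RRAGC begins 112 bases before, that of ATP6V1G1 58 and that of ATP6V0D1 59 bases before. In ATP6V1G1 and ATP6V0D1 the capitals stand between a t and an a, which makes the longer form, and in RRAGC and FNIP1 they do not.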

How the data were processed

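RNA of 3 NC and 3 shPRMT6 libraries of U87 cells was sequenced from libraries made with a kit that does not mark strand. For each gene the authors deposited unnormalized read counts and FPKM values, which are counts per exon length and library size, with 0.0001 at a count of 0. The lengths behind the FPKM followed the merged annotated exons, at a median of 1.19 times their length over 13026 genes. The submitters' processing notes name HISAT2, HTSeq 0.13.5 and GRCh38 without their roles, and the use of strand in counting is not given in the sources used here. Of 60612 genes, 60401 identifiers matched a symbol and 58394 GENCODE 29, which gave exon overlaps and shared 75-base stretches.

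Counts were scaled by TMM (factors 0.992 to 1.01), filtered by edgeR's default rule with the condition as group, and tested with edgeR 4.0.16 (quasi-likelihood test) in R 4.3.3. CPM values are after TMM scaling. Total counts of 56388161 to 75887696 per library limit the precision of genes near 1 CPM, and intervals and limits on counts of 0 cover counting error only. No library duplicated another of its group, as the chi-square of each pair was 52.2 to 85.7 times its degrees of freedom. Whether the replicates were separate cultures is known only from the methods text, which calls them independent.

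The members and gene lists were chosen with earlier results of these data known. Every member is accounted for by role, and of each further list the 3 genes with the smallest p in each direction among those called are named first, with other called genes after them. The values of 2 called genes are not reported here. Alternatives were DESeq2 1.42.0, no scaling or upper quartile factors, 2 other filters, a replicate block, limma 3.58.1 on log2 FPKM, a stricter call (adjusted p under 0.01) and fits that left out 1 library. Figures were drawn with matplotlib 3.10.9 in Python 3.11.15. The programs were tested on simulated data.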

Additional observations from a re-analysis of the deposited data

How the results depend on the processing

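Of the 14 called members, 9 (ATP6V1A, ATP6V1B2, ATP6V1D, ATP6V1G1, ATP6V1H, ATP6V0D2, ATP6V0E1, RRAGC and RPTOR) kept direction and call in all 6 fits that left out a library and in all 9 other fits at an adjusted p of 0.05, and none of the 14 changed direction. Of 612 member values under the alternatives, 572 kept direction and side of the threshold, 22 lost the call, 10 gained one and 8 changed sign. The sign changed only for members not called: leaving out 1 library moved the log2 fold change of ATP6V1C2 between -0.88 and 0.59, ATP6V1G2 between -0.25 and 0.15, LAMTOR1 between -0.0031 and 0.28, RRAGB between -0.0091 and 0.16, and SLC38A9 between -0.10 and 0.14.

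The V-ATPase subunits gave 7 to 13 calls under the alternatives, against 9, with DESeq2 giving the 13. The platform genes gave 8 calls with DESeq2 and 2 at an adjusted p under 0.01, against 5, and 3 to 5 with 1 library left out, where 3 came without NC replicate 3, shPRMT6 replicate 2 or shPRMT6 replicate 3. Over all genes, 3362 calls became 5782 with DESeq2, 1320 at an adjusted p under 0.01 and 1755 to 3183 with 1 library left out, where fewer samples were fitted. With the replicate block, 1858 genes, 8 V-ATPase subunits and 4 platform genes were called, and ATP6V0E2 and RRAGD lost their calls. The replicate numbers share no source in the labels, and the correlations of same-numbered libraries, as deviations from the group means, were -0.025, -0.017 and -0.030, so they were not treated as pairs. Of 104 shares of paralogs in CPM or with 1 shPRMT6 library left out, 18 moved by more than 1 SD of the shPRMT6 libraries. Leaving out 1 of 3 libraries cannot move a mean by more than 1 SD, so those rows could not fail. All 18 thus came from the CPM scale, which leaves out length. The rarest tested members had the widest errors, with an SE of 1.03 for ATP6V1C2 and for ATP6V0A4.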
